A study of Mus musculus with 44 samples.

Results

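The genes described here are 4 complement components, C3, C4b, Cfb and Cfp, and the anaphylatoxin receptors C3ar1 and C5ar1, taken as the entries of the count table that carry these symbols. They are 6 of 46078 genes, and all 6 had reads in each of the 44 libraries and entered the test. RNA came from macrophages of C57BL/6 mice, elicited in the peritoneal cavity by thioglycolate and harvested after 4 days. Cells of several mice were pooled as 1 isolate, and those that adhered over 24 h in culture were used. The cultures, in DMEM with 10% fetal bovine serum, then received an extract of H9c2 cells (10 µg/mL), a line derived from rat heart, or LPS (100 ng/mL), a bacterial product that drives classical activation, or IL-4 (10 ng/mL), which drives alternative activation, or no addition (control). RNA was taken after 8, 24 or 72 h, which makes 12 groups of 4 cultures each, except for 3 each in cell extract at 24 h and, at 72 h, in cell extract, IL-4 and control. The title asks about M1 polarization by molecules released from damaged cells. All cultures share 1 isolate, so a p-value measures only the spread between cultures and not between animals. In such bulk RNA, fewer cells of a type and less RNA per cell cannot be told apart.

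Complement is a cascade of proteins that marks microbes and debris for removal, and macrophages are a local source of it in tissue. C3 is the component on which the classical, lectin and alternative pathways meet, and its cleavage gives C3b, which coats targets, and the small peptide C3a. C4b encodes C4, which the classical and lectin pathways use to build the enzyme that cleaves C3. Cfb encodes factor B, the protease of the alternative pathway's own C3-cleaving enzyme, and Cfp encodes properdin, which stabilizes that enzyme. C3ar1 and C5ar1 encode the receptors of C3a and C5a, through which myeloid cells sense complement activation.

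On build GRCm38, in GENCODE M21, all 6 genes are protein-coding genes of the minus strand. C3 lies at chr17:57203970-57228136, C4b at chr17:34728380-34743882 and Cfb at chr17:34856374-34862518. Cfp lies at chrX:20925454-20931555, C3ar1 at chr6:122847138-122856161 and C5ar1 at chr7:16246743-16259540. The merged exon length is 5143 bp for C3, 5695 bp for C4b, 2825 bp for Cfb, 1736 bp for Cfp, 4305 bp for C3ar1 and 2570 bp for C5ar1. Levels of 2 of the genes are uncertain. Of Cfb's exon bases, 2246 also belong to the read-through gene Gm20547, which had 0 counts over all 44 libraries, so reads there may not have been counted to either gene and Cfb may be understated in every group. Of C4b's 50-base stretches, 34.6% are identical in its near copy C4a, which held 97 counts over all libraries, so some C4b reads may not have been counted either.

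The stretch before RefSeq's start of transcription is shown for C3, which changed with both inflammatory stimuli, and for C3ar1 and C5ar1, on which these stimuli differed. RefSeq (GRCm38.p6) gave a promoter window for 4 of the 6 genes, namely C3, Cfp, C3ar1 and C5ar1, and the 250 bases before the start are printed on the gene's own strand. They lie on the minus strand at chr17:57228137-57228386 for C3, chr6:122856158-122856407 for C3ar1 and chr7:16259339-16259588 for C5ar1. RefSeq and GENCODE M21 place the start of C3 at the same base, but GENCODE starts C3ar1 and C5ar1 farther upstream, so that 4 of the bases printed for C3ar1 and 202 of those for C5ar1 lie inside the gene as GENCODE places it. Capitals mark matches to a C/EBP element in C3 and C5ar1, and to a kB element in C3ar1.
C3: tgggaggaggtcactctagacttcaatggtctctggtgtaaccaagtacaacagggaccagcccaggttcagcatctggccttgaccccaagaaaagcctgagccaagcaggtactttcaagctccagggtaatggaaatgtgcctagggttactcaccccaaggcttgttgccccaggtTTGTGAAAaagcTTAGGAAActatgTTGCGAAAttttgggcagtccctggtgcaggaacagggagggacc
C3ar1: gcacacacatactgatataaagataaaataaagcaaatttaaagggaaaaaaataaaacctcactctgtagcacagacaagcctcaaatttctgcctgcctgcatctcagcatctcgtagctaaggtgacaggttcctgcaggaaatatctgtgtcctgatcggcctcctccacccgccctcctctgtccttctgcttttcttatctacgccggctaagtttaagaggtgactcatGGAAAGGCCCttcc
C5ar1: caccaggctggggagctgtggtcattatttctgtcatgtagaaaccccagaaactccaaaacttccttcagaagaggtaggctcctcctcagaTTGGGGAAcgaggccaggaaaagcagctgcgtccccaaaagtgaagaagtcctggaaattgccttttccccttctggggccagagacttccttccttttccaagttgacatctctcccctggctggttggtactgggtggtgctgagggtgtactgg
The motifs below were searched on both strands of the 300-base windows, 250 before to 50 after the start. They were the interferon response element (GAAANNGAAA), the GAS element (TTCNNNGAA), the STAT6 element (TTCNNNNGAA), the kB element (GGGNNNTTCC) and the C/EBP element (TTNNGNAA). With the start base at 0, the C3 window held 3 C/EBP matches, at -70 to -63, -58 to -51 and -45 to -38, the last of which reads as a match on both strands. C5ar1 held 1 C/EBP match, at -157 to -150, within its GENCODE gene, and C3ar1 held 1 kB match on the opposite strand, at -14 to -5. The Cfp window held no match to any of the motifs. Of all 32851 windows in that table, 40.7% hold the C/EBP element, 5.56% the kB element, 3.44% the interferon response element, 8.30% the GAS element and 6.95% the STAT6 element. The C/EBP letters are thus common and the others less so, and a match to any of them is a description only.

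There was doubt about 5 libraries, and others that stood apart by other measures are named further below. Replicate 1 in IL-4 at 24 h and in control at both 8 and 24 h was doubted from earlier results on other genes of these data. Replicate 1 in LPS at 72 h and replicate 3 in IL-4 at 72 h were added after the values of the 6 genes were seen, for a low C5ar1 in both, a low C4b in LPS and a low Cfp in IL-4. A call gained without these libraries is therefore no added evidence, and all 44 stay in the values below. Leaving all 5 out together changed the number of the 6 genes called in 10 of the 17 comparisons that hold any of them. It was 6 in place of 4 with LPS at 24 h, 4 in place of 3 with cell extract at 24 h, 3 in place of 1 with IL-4 at 8 h and 2 in place of 3 with IL-4 at 24 h. The share of all tested genes called there was 38.7%, 24.5%, 11.5% and 8.78%, in place of 37.9%, 22.1%, 8.33% and 9.50%. The number was 5 in place of 3 for cell extract against LPS at 72 h, 1 in place of 0 and 4 in place of 3 for control at 24 and 72 h against 8 h. Shares of all tested genes were 24.6%, 0.637% and 17.3% there, in place of 22.4%, 0.537% and 13.5%. For the effect at a later time minus that at 8 h the number was 4 in place of 3 for LPS at 24 h, 4 in place of 3 for LPS at 72 h and 0 in place of 1 for IL-4 at 72 h. Beside these stood 19.5%, 34.4% and 21.4% of all tested genes, in place of 17.1%, 30.0% and 16.1%.

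C3 and Cfb rose with LPS and with cell extract at every time, C4b rose with LPS at every time, and C3ar1 fell with LPS at every time. With IL-4 no gene was called at every time, and C4b and Cfb were not called at any. A gene was called at an adjusted p under 0.05 over all 14537 tested genes. With cell extract, 4 of 6 genes were called at 8 h (3 higher, 1 lower), 3 at 24 h (2 higher, 1 lower) and 4 at 72 h (3 higher, 1 lower), where 30.2%, 22.1% and 26.3% of all tested genes were called. With LPS, 4 of 6 were called at 8 h (3 higher, 1 lower), 4 at 24 h (3 higher, 1 lower) and 5 at 72 h (3 higher, 2 lower), beside 45.4%, 37.9% and 31.5% of all tested genes. With IL-4, 1 of 6 was called at 8 h (higher), 3 at 24 h (2 higher, 1 lower) and 1 at 72 h (lower), beside 8.33%, 9.50% and 23.7% of all tested genes. The IL-4 count at 72 h is no larger a share than in all genes, and with 6 genes the LPS count at 8 h is not far from its background either. The median log2 change of the 6 genes was 0.50, 0.37 and 1.02 with LPS at 8, 24 and 72 h, 0.49, 0.48 and 0.60 with cell extract, and 0.38, -0.16 and -0.16 with IL-4, and no median over all tested genes lay farther from 0 than -0.068.

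**Figure D1:**
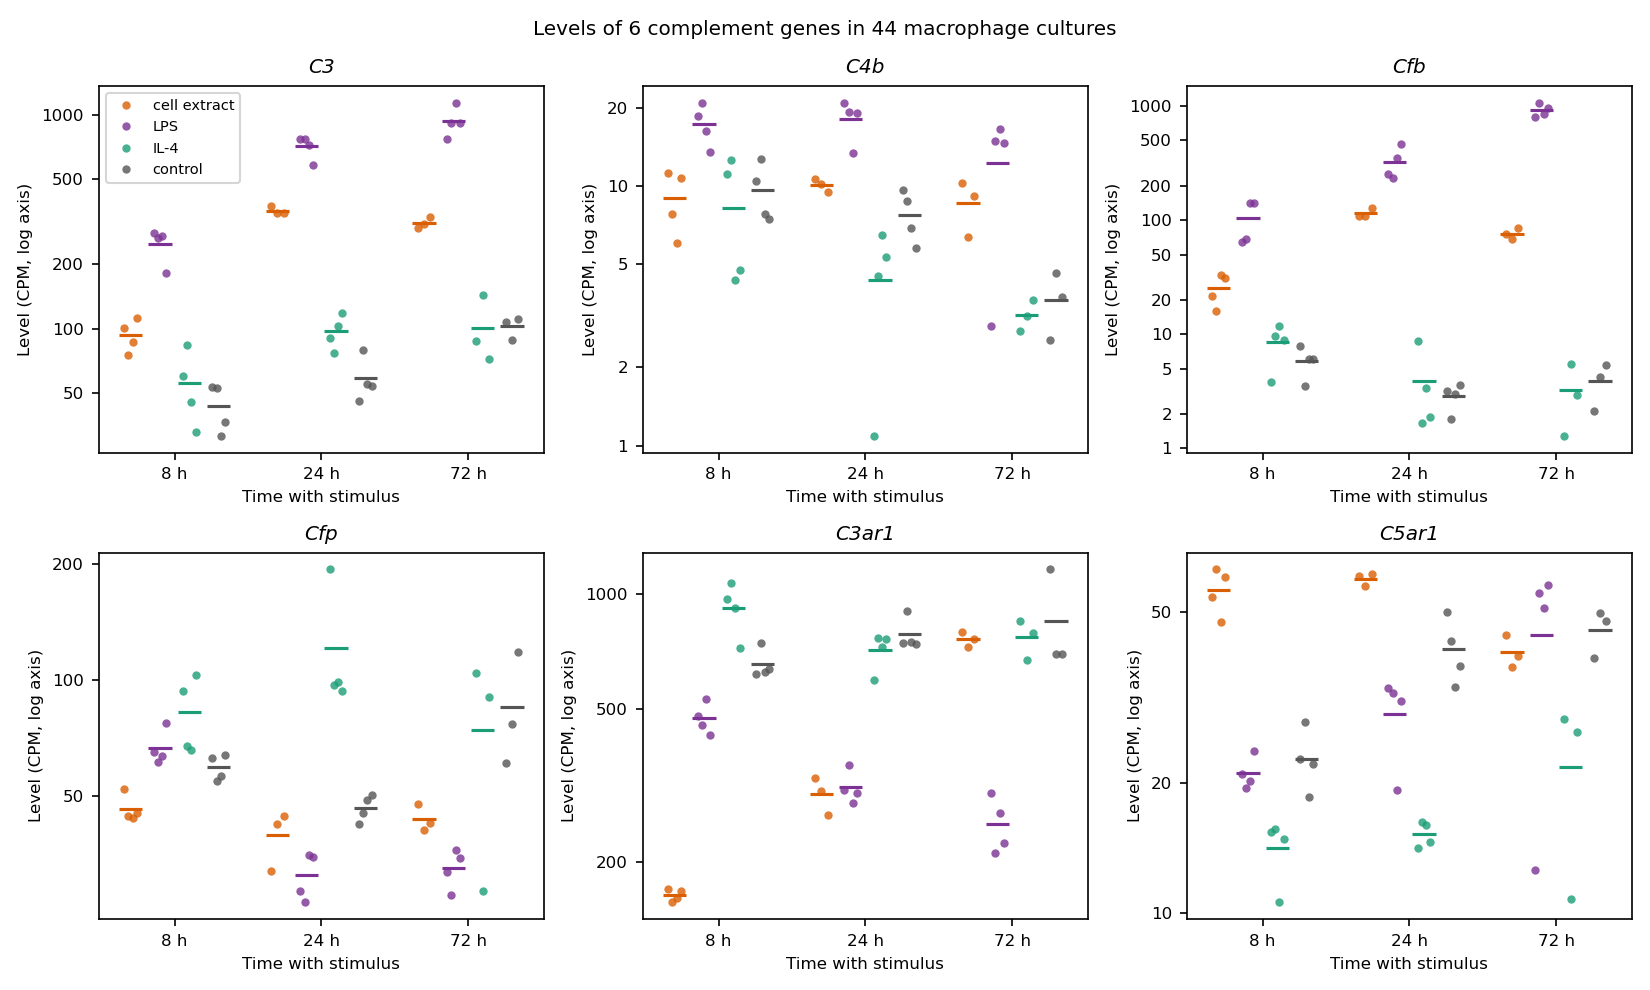
Level of each gene in each of 44 cultures, in TMM-scaled CPM (log axis), by time and stimulus. Points are cultures and bars are group means. C3 and Cfb are highest with LPS, and C3ar1 is lowest with cell extract at 8 h, at 157 to 171 CPM, and then with LPS at 72 h, at 211 to 303 CPM.

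Levels are given in CPM, counts scaled to library size by TMM so that samples can be compared, and between genes they can be compared only per length. In control cultures at 8 h, the mean level per kilobase of exon was 153 CPM for C3ar1, 34.3 for Cfp, 8.87 for C5ar1, 8.48 for C3, 2.09 for Cfb and 1.69 for C4b. After 72 h of LPS the order was another one, with 327 CPM per kilobase for Cfb, 182 for C3, 58.4 for C3ar1, 18.8 for Cfp, 17.2 for C5ar1 and 2.16 for C4b. The Cfb values divide by all its 2825 bp of exon, of which only 579 bp belong to no other gene. Reads of C4b may also be missing, so the places of Cfb and C4b among the lower genes in controls are uncertain. The receptor C3ar1 was thus the highest of the 6 per length in unstimulated cells, and factor B was the highest after 72 h of LPS. Between its highest and its lowest group mean, Cfb spanned 317-fold, C3 21.4-fold, C4b 5.72-fold, C3ar1 5.59-fold, C5ar1 4.23-fold and Cfp 3.87-fold.

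C3 rose with LPS by 5.70-fold at 8 h, 12.1-fold at 24 h and 9.11-fold at 72 h. At 8 h it stood at 281, 266, 270.3 and 182 CPM in LPS cultures, against 53.4, 52.8, 31.7 and 36.7 CPM in control cultures (log2 2.51 ± 0.23 SE, adjusted p = 2.04e-12). At 24 h its level was 768, 769, 724 and 585 CPM in LPS cultures, against 46.2, 79.4, 55.2 and 54.3 CPM in controls (log2 3.59 ± 0.23 SE, adjusted p = 3.51e-16). At 72 h LPS cultures held 771, 915, 1139 and 913 CPM and controls 108, 88.5 and 111 CPM (log2 3.19 ± 0.26 SE, adjusted p = 5.10e-13). Every LPS culture lay above every control of its time. Cell extract raised C3 as well, by 2.14-fold at 8 h, 6.05-fold at 24 h and 3.05-fold at 72 h. The cell extract cultures held 101, 75.2, 87.2 and 112 CPM at 8 h (log2 1.10 ± 0.22 SE, adjusted p = 9.29e-05). At 24 h they held 374, 349.6 and 346 CPM (log2 2.60 ± 0.23 SE, adjusted p = 1.13e-11), and at 72 h 295, 310.3 and 332 CPM (log2 1.61 ± 0.25 SE, adjusted p = 5.34e-06). These cultures, too, lay above all controls of their time and were close to each other at 24 and 72 h.

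With IL-4, C3 was called at 24 h only, at 90.4, 77.6, 103 and 118 CPM in IL-4 cultures and 46.2, 79.4, 55.2 and 54.3 CPM in controls (log2 0.73 ± 0.22 SE, adjusted p = 0.0250). The 2 groups overlapped, because control replicate 2 stood above IL-4 replicate 2. That call was lost when any of control replicates 1, 3 or 4 or IL-4 replicates 3 or 4 was left out, with adjusted p from 0.0572 to 0.107. At 8 h C3 stood at 55.7 ± 22.1 CPM with IL-4 and 43.6 ± 11.1 CPM in controls (log2 0.34, adjusted p = 0.426), and at 72 h at 101 ± 37.6 and 103 ± 12.3 CPM (log2 -0.02, 95% interval -0.52 to 0.49). Ordered by mean, C3 ran from LPS at 72 and 24 h through cell extract at 24 and 72 h to LPS at 8 h, and each of these 5 groups was separated from the next by every culture. The 7 groups below them, from control at 72 h to control at 8 h, overlapped each with its neighbour.

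C4b had the fewest counts of the 6 genes, 1 to 374 per library, and rose with LPS by 1.77-fold, 2.37-fold and 3.92-fold at 8, 24 and 72 h. It held 18.7, 21.0, 16.3 and 13.6 CPM in LPS cultures at 8 h, against 10.5, 12.7, 7.83 and 7.46 CPM in controls (log2 0.83 ± 0.26 SE, adjusted p = 0.00798). At 24 h LPS cultures held 21.0, 19.3, 13.5 and 19.1 CPM and controls 9.63, 8.77, 6.92 and 5.76 CPM (log2 1.24 ± 0.27 SE, adjusted p = 1.93e-04). At both times the groups did not overlap. At 72 h the level was 2.89, 15.0, 16.7 and 14.7 CPM in LPS cultures and 2.54, 4.62 and 3.75 CPM in controls (log2 1.97 ± 0.38 SE, adjusted p = 6.00e-05). The groups overlapped through LPS replicate 1, a library of 1.10 M counts in which C4b had 3 counts, and without it the change was 2.1 (log2, adjusted p = 5.78e-06). By mean over all cultures, C4b with LPS went from 17.4 CPM at 8 h to 12.3 CPM at 72 h. Controls went from 9.64 to 3.64 CPM. The lower LPS mean rests in part on replicate 1, as the other cultures at 72 h lay within the range of LPS at 8 h. LPS cultures at 72 h were not tested against those at 8 h. The larger fold at 72 h than at 8 h was not called (adjusted p = 0.0591 for the difference of the effects). With cell extract, C4b was called at 72 h only, at 10.3, 6.38 and 9.15 CPM in cell extract cultures (log2 1.36 ± 0.40 SE, adjusted p = 0.00920), above each of the 3 controls, which had 7 to 13 counts. Without control replicate 1 that adjusted p was 0.0934. At 8 h cell extract cultures stood at 8.97 ± 2.48 CPM beside 9.64 ± 2.48 in controls (log2 -0.12), and at 24 h at 10.1 ± 0.608 beside 7.77 ± 1.75 CPM (log2 0.41). At 72 h the means were 8.62 ± 2.02 and 3.64 ± 1.04 CPM. The level with cell extract was thus much the same at all times, and it was the controls that were lower at 72 h. IL-4 gave no call for C4b (log2 -0.20, -0.58 and -0.14 at 8, 24 and 72 h, adjusted p = 0.785, 0.243 and 0.840), and no 2 neighbours in the order of its 12 group means were free of overlap.

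Cfb changed most of the 6 genes. LPS raised it 18.2-fold at 8 h, 112-fold at 24 h and 259-fold at 72 h, and cell extract raised it 4.39-fold, 39.6-fold and 21.5-fold. In LPS cultures at 8 h it held 63.8, 68.6, 142 and 143 CPM, against 7.92, 3.51, 6.07 and 6.07 CPM in controls (log2 4.18 ± 0.36 SE, adjusted p = 8.08e-13). At 24 h LPS cultures held 255, 232, 349.7 and 462 CPM and controls 3.21, 1.82, 3.03 and 3.59 CPM (log2 6.80 ± 0.41 SE, adjusted p = 4.38e-17). At 72 h the level was 803, 1071, 849.7 and 968 CPM in LPS cultures, against 2.12, 4.27 and 5.35 CPM in controls (log2 8.02 ± 0.52 SE, adjusted p = 8.08e-16). No LPS culture came near a control, and the controls held 10 to 103 counts per library, so the folds rest on low control levels. Cell extract cultures held 21.6, 15.9, 33.3 and 31.0 CPM at 8 h (log2 2.13 ± 0.35 SE, adjusted p = 4.72e-06). They held 108, 109.6 and 128 CPM at 24 h (log2 5.31 ± 0.40 SE, adjusted p = 1.17e-13) and 76.1, 68.3 and 84.8 CPM at 72 h (log2 4.43 ± 0.50 SE, adjusted p = 6.25e-09), all above every control. With IL-4, Cfb stood at 8.53 ± 3.36, 3.92 ± 3.29 and 3.25 ± 2.13 CPM at 8, 24 and 72 h, beside 5.90 ± 1.81, 2.91 ± 0.766 and 3.91 ± 1.64 CPM in controls, and was not called (adjusted p = 0.656, 0.897 and 0.845). The 95% intervals of those log2 differences were wide, -0.43 to 1.26, -1.11 to 0.74 and -1.33 to 0.95.

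Properdin, the other protein of the alternative pathway here, did not follow factor B. Cfp was 2.59-fold lower than control with LPS at 72 h, at 31.8, 27.8, 36.3 and 34.6 CPM in LPS cultures, against 60.9, 77.2 and 118 CPM in controls (log2 -1.37 ± 0.27 SE, adjusted p = 6.47e-05). It was also 1.92-fold lower than control with cell extract at 72 h, at 47.7, 40.9 and 42.6 CPM (log2 -0.94 ± 0.28 SE, adjusted p = 0.0102). All cultures with either stimulus lay below all controls, but without control replicate 4, the highest, the cell extract difference had an adjusted p of 0.126. Mean Cfp with cell extract was 46.5, 39.7 and 43.7 CPM at 8, 24 and 72 h, while controls stood at 59.6, 46.8 and 85.4 CPM. With LPS the means were 66.9, 31.3 and 32.6 CPM, so the LPS level was much the same at 24 and 72 h. The higher control mean at 72 h was itself not called against 8 h (log2 0.50, adjusted p = 0.190, and 0.19 to 0.69 with 1 library left out at a time). At 24 h every LPS culture was below every control, at 28.5, 26.6, 35.3 and 34.8 CPM in LPS cultures against 42.5, 45.4, 48.9 and 50.3 CPM in controls, and the difference missed the threshold (log2 -0.58 ± 0.24 SE, adjusted p = 0.0514). With the replicate number as a block it passed (adjusted p = 0.0420), as it did in a fit of these 2 groups alone (8.81e-04), with no filter on low counts (0.00460) and without the first replicates of 3 groups, control at 8 and 24 h and IL-4 at 24 h (0.0348). With 1 library left out at a time it was -0.63 to -0.50 (adjusted p = 0.0568 to 0.139). At 8 h LPS and control cultures overlapped (log2 0.17, adjusted p = 0.604). Cell extract cultures lay just below controls at 8 h, at 52.2, 44.5, 44.1 and 45.3 CPM in cell extract cultures beside 62.9, 54.7, 56.6 and 64.2 CPM in controls (log2 -0.36, adjusted p = 0.287, and 0.0435 in a fit of these groups alone), and overlapped them at 24 h (log2 -0.24, adjusted p = 0.581).

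IL-4 raised Cfp 2.49-fold at 24 h, to 194, 97.3, 98.9 and 93.7 CPM in IL-4 cultures, against 42.5, 45.4, 48.9 and 50.3 CPM in controls (log2 1.32 ± 0.24 SE, adjusted p = 1.24e-04). IL-4 replicate 1, the shallowest library with 0.908 M counts, was the high one, and without it the change was 1.05 (log2; adjusted p = 0.00105). At 8 h all IL-4 cultures, with 94.0, 67.6, 65.9 and 103 CPM, also lay above all controls without a call (log2 0.49, adjusted p = 0.241). At 72 h the IL-4 cultures held 104, 28.5 and 90.3 CPM, among and below the controls (log2 -0.18, adjusted p = 0.666). The low one is replicate 3, and without it the difference turned to 0.22 (adjusted p = 0.543).

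**Figure D2:**
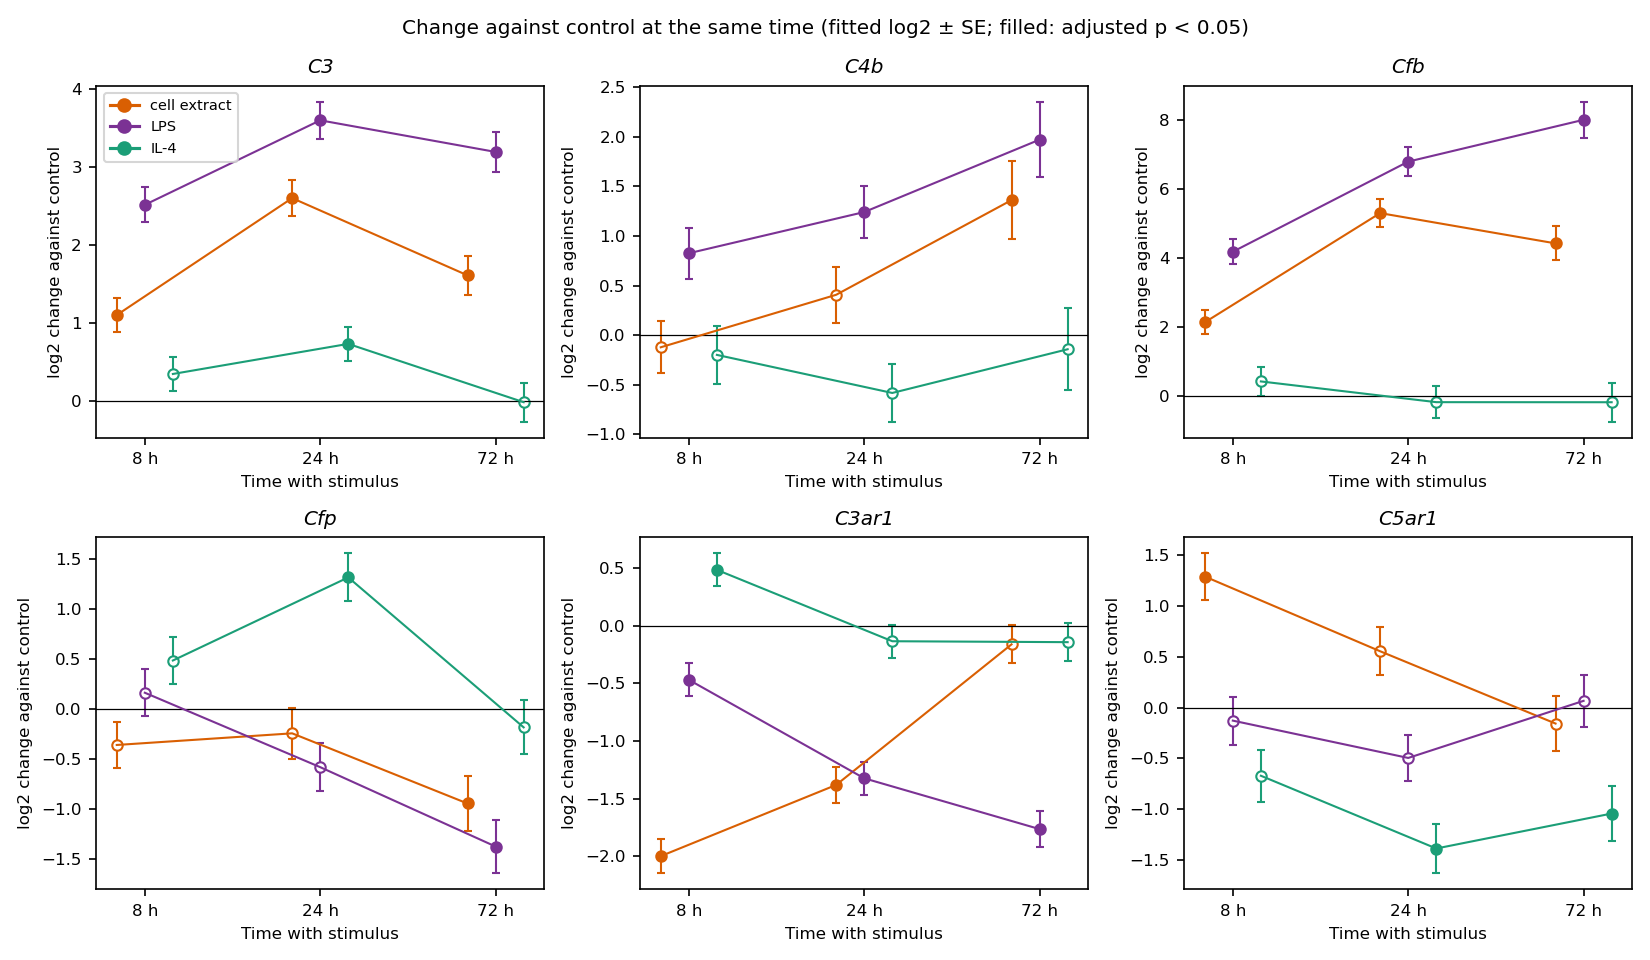
Change of each gene against control at the same time, as fitted log2 value with its standard error, for cell extract, LPS and IL-4 at 8, 24 and 72 h (evenly spaced). Filled points have an adjusted p under 0.05 and open points do not. For C3ar1 the lines of cell extract (-2.0 at 8 h, -0.16 at 72 h) and LPS (-0.47 at 8 h, -1.76 at 72 h) cross.

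The C3a receptor C3ar1 fell with both inflammatory stimuli, but on opposite courses. With cell extract it was 3.99-fold lower at 8 h and 2.60-fold lower at 24 h, and at 72 h it was no longer called. At 8 h it held 171, 157, 162 and 168 CPM in cell extract cultures, against 619.9, 745, 625 and 637 CPM in controls (log2 -2.0 ± 0.15 SE, adjusted p = 3.04e-14). At 24 h cell extract cultures held 331, 307 and 265 CPM and controls 744, 902, 749 and 740.0 CPM (log2 -1.38 ± 0.16 SE, adjusted p = 4.59e-09). The 4 cell extract cultures at 8 h were close to each other and were the lowest of all 44 libraries. At 72 h cell extract cultures held 794, 726 and 763 CPM, inside the range of the controls at 1159, 695 and 696 CPM (log2 -0.16, 95% interval -0.49 to 0.17, adjusted p = 0.515). Control replicate 1 is the high one, and without it that difference was 0.14 (adjusted p = 0.597).

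With LPS, C3ar1 was 1.38-fold lower at 8 h, 2.5-fold lower at 24 h and 3.39-fold lower at 72 h. LPS cultures held 482, 456, 533 and 428 CPM at 8 h (log2 -0.47 ± 0.14 SE, adjusted p = 0.00601). They held 308, 358, 285 and 302 CPM at 24 h (log2 -1.32 ± 0.14 SE, adjusted p = 4.93e-10) and 303, 211, 268 and 225 CPM at 72 h (log2 -1.76 ± 0.15 SE, adjusted p = 3.02e-12). No LPS culture overlapped with a control of its time. IL-4 raised C3ar1 at 8 h by 1.40-fold, at 972, 1069, 916 and 722 CPM in IL-4 cultures (log2 0.49 ± 0.14 SE, adjusted p = 0.0235), with replicate 4 below the highest control. That call ended with no filter on low counts (adjusted p = 0.353), in a fit of the 2 groups alone (0.0861) and without any of control replicates 1, 3 and 4 or IL-4 replicates 1, 2 and 3 (0.0517 to 0.0823). At 24 and 72 h IL-4 cultures averaged 714 ± 81.3 and 771 ± 89.9 CPM, and the differences from control were not called (log2 -0.13 and -0.14, adjusted p = 0.676 and 0.565).

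C5ar1, the C5a receptor, rose with cell extract at 8 h and fell with IL-4 at 24 and 72 h, and LPS gave no call for it. At 8 h it held 54.1, 62.9, 47.5 and 60.3 CPM in cell extract cultures, against 22.7, 27.8, 18.5 and 22.2 CPM in controls, a 2.45-fold rise without overlap (log2 1.29 ± 0.23 SE, adjusted p = 1.60e-05). At 24 h it held 60.6, 57.4 and 61.2 CPM in cell extract cultures, against 49.9, 42.8, 33.6 and 37.4 CPM in controls, and although no culture overlapped the difference was not called (log2 0.55 ± 0.24 SE, adjusted p = 0.0939). It passed in a fit of these groups alone (adjusted p = 0.00255) and with no filter on low counts (0.0123), and with 1 library left out at a time it was 0.47 to 0.66 (adjusted p = 0.0654 to 0.229). At 72 h the groups overlapped, with 44.3, 37.2 and 39.4 CPM in cell extract cultures and 39.0, 49.8 and 47.6 CPM in controls (log2 -0.16, adjusted p = 0.727). Of all 12 groups, cell extract at 24 h and at 8 h had the highest means, and these 2 overlapped.

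With IL-4, C5ar1 fell by 2.62-fold at 24 h, to 14.2, 16.3, 16.0 and 14.6 CPM in IL-4 cultures, below every control (log2 -1.39 ± 0.24 SE, adjusted p = 7.09e-05). At 72 h it fell by 2.06-fold, to 28.2, 10.8 and 26.4 CPM (log2 -1.05 ± 0.27 SE, adjusted p = 0.00385), again below every control. Replicate 3 is the low one, and without it the change was -0.71 (log2; adjusted p = 0.0487). At 8 h IL-4 cultures held 15.4, 15.6, 10.6 and 14.9 CPM, below every control without a call (log2 -0.67 ± 0.26 SE, adjusted p = 0.107), and the call was made with no filter on low counts (adjusted p = 0.00620), while with 1 library left out at a time the difference was -0.76 to -0.55 (adjusted p = 0.0732 to 0.298). LPS cultures held 21.0, 19.5, 20.2 and 23.7 CPM at 8 h, which overlapped with controls (log2 -0.13, adjusted p = 0.694). At 24 h they held 33.3, 32.5, 19.3 and 31.0 CPM, below every control (log2 -0.50 ± 0.23 SE, adjusted p = 0.0843). This difference passed with the replicate number as a block (adjusted p = 0.0440), in a fit of these groups alone (0.0249) and with no filter (0.0207), but it rests in part on LPS replicate 3, the low one, without which it was -0.30 (adjusted p = 0.353). At 72 h LPS cultures held 12.5, 55.4, 51.1 and 57.9 CPM, replicate 1 far below the others, beside 39.0, 49.8 and 47.6 CPM in controls (log2 0.07, 95% interval -0.45 to 0.58; without replicate 1 0.23).

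Cell extract and LPS were also compared with each other. At 8 h, 5 of the 6 genes differed (1 higher with cell extract, 4 lower), at 24 h 4 (1 higher, 3 lower) and at 72 h 3 (1 higher, 2 lower), where 29.1%, 16.8% and 22.4% of all tested genes differed. C3 was lower with cell extract than with LPS at every time, by 2.66-fold at 8 h (log2 -1.41 ± 0.22 SE, adjusted p = 1.38e-06), 2.0-fold at 24 h (log2 -1.0 ± 0.23 SE, adjusted p = 0.00159) and 2.99-fold at 72 h (log2 -1.58 ± 0.24 SE, adjusted p = 3.21e-06). Cfb was lower by 4.14-fold at 8 h (log2 -2.05 ± 0.32 SE, adjusted p = 2.29e-06), 2.82-fold at 24 h (log2 -1.5 ± 0.34 SE, adjusted p = 0.00116) and 12-fold at 72 h (log2 -3.59 ± 0.38 SE, adjusted p = 2.05e-09). C4b was lower by 1.93-fold at 8 h (log2 -0.95 ± 0.27 SE, adjusted p = 0.00503) and by 1.78-fold at 24 h (log2 -0.83 ± 0.28 SE, adjusted p = 0.0300). Leaving out any cell extract library, or LPS replicate 1, 2 or 4, ended the call at 24 h (adjusted p = 0.0655 to 0.110). At 72 h C4b was not called (log2 -0.61 ± 0.29 SE, adjusted p = 0.133), and the groups overlapped.

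The receptors separated the 2 stimuli in both directions. C3ar1 was 2.89-fold lower with cell extract than with LPS at 8 h (log2 -1.53 ± 0.15 SE, adjusted p = 2.26e-11), did not differ beyond error at 24 h (log2 -0.06, 95% interval -0.37 to 0.25) and was 3.04-fold higher at 72 h (log2 1.60 ± 0.15 SE, adjusted p = 2.65e-10). C5ar1 was 2.68-fold higher with cell extract at 8 h (log2 1.42 ± 0.24 SE, adjusted p = 5.40e-06) and 2.07-fold higher at 24 h (log2 1.05 ± 0.24 SE, adjusted p = 0.00115), and at 72 h the groups overlapped (log2 -0.22 ± 0.25 SE, adjusted p = 0.543). Cfp was not called at any time (log2 -0.52, 0.34 and 0.43 at 8, 24 and 72 h, adjusted p = 0.0961, 0.430 and 0.245). In a fit of the compared groups alone Cfp was called lower with cell extract at 8 h (adjusted p = 0.00173) and higher at 72 h (0.0417).

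Whether the difference of a stimulus from control changed over time was tested as its effect at 24 or 72 h minus its effect at 8 h. Such a change can come from the stimulated cultures or from the controls. The effects share the controls at 8 h. For cell extract, 2 of 6 genes were called at 24 h (both higher) and 4 at 72 h (3 higher, 1 lower), beside 5.03% and 21.9% of all tested genes. The effect on C3 was 1.5 larger at 24 h (log2, SE 0.31, adjusted p = 0.00155), and that on Cfb 3.17 larger at 24 h (adjusted p = 6.54e-05) and 2.29 larger at 72 h (0.00581). The effect on C3ar1 differed by 1.84 at 72 h (SE 0.22, adjusted p = 3.86e-08) and that on C5ar1 by -1.45 (SE 0.35, adjusted p = 0.00237). For C4b the difference at 72 h was 1.48 (adjusted p = 0.0218), and it was lost without cell extract replicate 2 or control replicate 1 at 72 h, or without cell extract replicate 3 or control replicate 2 at 8 h (0.0535 to 0.111). Mean C4b with cell extract was 8.97 CPM at 8 h and 8.62 CPM at 72 h, while controls had 9.64 and 3.64 CPM. Mean C5ar1 went from 56.2 to 40.3 CPM with cell extract and from 22.8 to 45.5 CPM in controls.

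For LPS, 3 of 6 genes were called at 24 h (2 higher, 1 lower) and 3 at 72 h (1 higher, 2 lower), beside 17.1% and 30.0% of all tested genes. The effect of LPS on Cfb was 2.62 larger at 24 h than at 8 h (log2, SE 0.50, adjusted p = 1.75e-04) and 3.83 larger at 72 h (SE 0.59, adjusted p = 2.44e-06). The effect on C3ar1 differed by -0.85 at 24 h (adjusted p = 0.00182, and 0.0527 with no filter on low counts) and by -1.29 at 72 h (5.08e-06). The effect on C3 was 1.08 larger at 24 h (adjusted p = 0.00906), which was lost without the first replicates of 3 groups, control at 8 and 24 h and IL-4 at 24 h (0.0538). The effect on Cfp differed by -1.54 at 72 h (SE 0.35, adjusted p = 7.59e-04). For C4b the difference at 72 h was 1.15 (adjusted p = 0.0591, and 0.0186 without LPS replicate 1 at 72 h). For IL-4, 0 of 6 were called at 24 h and 1 at 72 h (lower), beside 0.0619% and 16.1% of all tested genes. At 24 h the count at an unadjusted p under 0.05 was 3, beside 7.48% of all tested genes, and DESeq2's Wald test called 1, C3ar1, beside 1.40% of the genes it tested. The 1 call at 72 h was C3ar1 at -0.63 (adjusted p = 0.0420), and it was lost without control replicate 1 at 72 h (0.330) and in 11 of the other settings.

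Control cultures changed with time as well. At 24 h against 8 h, 0 of the 6 genes were called by edgeR, beside 0.537% of all tested genes, with 2 at an unadjusted p under 0.05, beside 11.7% of all tested genes, and 1 called by DESeq2, beside 1.63%. That gene was C5ar1, at 49.9, 42.8, 33.6 and 37.4 CPM at 24 h against 22.7, 27.8, 18.5 and 22.2 CPM at 8 h, without overlap (log2 0.82 ± 0.23 SE, adjusted p = 0.0969). With the replicate number as a block its adjusted p was 0.0406 and by DESeq2 0.0210. At 72 h against 8 h, 3 of 6 were called (2 higher, 1 lower), beside 13.5% of all tested genes. C3 was 2.34-fold higher (log2 1.23 ± 0.23 SE, adjusted p = 3.42e-04), C5ar1 1.97-fold higher (log2 0.97 ± 0.25 SE, adjusted p = 0.00804) and C4b 2.80-fold lower (log2 -1.49 ± 0.38 SE, adjusted p = 0.00663). Leaving out control replicate 1 at 72 h ended the call of C4b (adjusted p = 0.104). C3ar1 was not called (log2 0.37 ± 0.15 SE, adjusted p = 0.0967) but was under RLE scaling (0.0370) and by DESeq2 (0.0152).

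Beside these 6, 48 other complement genes were listed by role, of which 25 passed the filter on low counts: 9 of 17 of the classical and lectin pathways, 1 of 8 of the remaining alternative and terminal components (C8g), 8 of 15 regulators and 7 of 8 receptors. With cell extract, 2 of the 25 rose and 8 fell at 8 h, 3 and 10 at 24 h, and 2 and 12 at 72 h, where 30.2%, 22.1% and 26.3% of all tested genes were called in either direction. With LPS, 4 rose and 7 fell at 8 h, 4 and 12 at 24 h, and 8 and 11 at 72 h, beside 45.4%, 37.9% and 31.5% of all tested genes, so that the count at 8 h is close to its background. With IL-4, 1 rose and 1 fell at 8 h, 2 and 4 at 24 h, and 2 and 9 at 72 h, beside 8.33%, 9.50% and 23.7%. The median log2 change of the 25 was -0.13, -0.04 and -0.90 with cell extract, -0.17, -0.58 and -0.81 with LPS, and -0.05, 0 and -0.70 with IL-4 at the 3 times.

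Of the classical and lectin pathways, the protease gene C1ra rose with both stimuli, by 3.23-fold, 11.8-fold and 5.99-fold with cell extract and by 7.87-fold, 19.9-fold and 20.5-fold with LPS at 8, 24 and 72 h. At 72 h it stood at 76.6 ± 14.8 CPM in LPS cultures, against 4.03 ± 1.16 CPM in controls (SD, n = 4 and 3) (adjusted p = 3.91e-15). C2, whose product joins C4 in the enzyme that cleaves C3, rose with LPS by 2.59-fold, 6.05-fold and 2.68-fold, from low levels. It stood at 3.19 ± 1.60, 5.75 ± 0.755 and 5.21 ± 0.278 CPM with LPS, against 1.26 ± 0.248, 0.907 ± 0.318 and 1.98 ± 0.753 CPM in controls. The controls at 72 h held 18 counts of C2 in all. C1s1, the partner protease of C1ra, rose with LPS by 2.92-fold at 24 h and 5.77-fold at 72 h and with cell extract by 1.97-fold at 24 h, and fell with cell extract by 1.86-fold at 72 h. In GENCODE M21 C2 shares exons with the same read-through gene as Cfb, so its level may be understated too. C1qb and C1qc, chains of the recognition protein C1q, fell with cell extract at every time, C1qb by 1.77-fold, 2.77-fold and 3.49-fold and C1qc by 1.67-fold, 2.62-fold and 2.09-fold, and with LPS at 24 and 72 h, C1qb by 1.55-fold and 9.71-fold and C1qc by 2.31-fold and 9.13-fold. With IL-4 at 72 h C1qb was lower than control by 6.33-fold, C1qc by 4.15-fold and C1s1 by 5.86-fold. In controls at 72 h against 8 h, 3 of the 9 genes of these pathways were called higher and 1 lower, beside 13.5% of all tested genes. Fcnb, which encodes the lectin ficolin B, stood at 2.61 ± 0.487 CPM with LPS at 72 h and had no read in the controls of that time.

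Of the 8 regulators tested, 1 rose and 2 fell with cell extract at 8 h, 0 and 3 at 24 h and 0 and 4 at 72 h. Beside these, 30.2%, 22.1% and 26.3% of all tested genes were called in either direction. With LPS 2 rose and 3 fell at 8 h, 1 and 4 at 24 h and 2 and 4 at 72 h, beside 45.4%, 37.9% and 31.5%. With 8 genes, the counts at 8 h are not far from their background. Cd55, which encodes decay-accelerating factor, was 22.3-fold lower with LPS, 13.3-fold lower with cell extract and 6.72-fold lower with IL-4 at 72 h. With LPS at that time Cd55 stood at 1.65 ± 0.577 CPM in LPS cultures, against 40.4 ± 11 CPM in controls (SD, n = 4 and 3), with an adjusted p of 1.03e-16. Clu, which encodes clusterin, was 17.1-fold, 9.09-fold and 7.98-fold lower in the same comparisons. Serping1, the gene of the inhibitor of C1r and C1s, went the other way with LPS at 8 and 24 h, at 3.14-fold and 6.16-fold. In controls at 72 h against 8 h, 5 of the 8 regulators were called higher and 0 lower. Of all 25 listed genes tested, 8 were higher and 1 lower, beside 13.5% of all tested genes called in either direction. Folds at 72 h are thus taken against controls that had changed. Controls at 72 h had a mean of 40.4 CPM of Cd55, against 5.41 CPM at 8 h, and more markers of mesothelial cells and fibroblasts, whose values follow.

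Among the receptors, C5ar2, the second C5a receptor, fell with LPS by 3.73-fold, 10.6-fold and 7.77-fold and with cell extract by 3.81-fold, 6.95-fold and 3.64-fold, whereas C5ar1 rose with cell extract at 8 h and was not called with LPS. At 8 h C5ar2 stood at 0.875 ± 0.226 CPM in cell extract cultures, against 3.48 ± 0.534 CPM in controls (SD, n = 4 and 4). Cd93, a surface protein first described as a C1q receptor, was 11.5-fold lower with LPS, 3.26-fold lower with cell extract and 1.72-fold lower with IL-4 at 24 h. Vsig4, a receptor of C3 fragments on resident macrophages, was 12.3-fold lower with LPS and 7.26-fold lower with cell extract at 72 h, and 2.25-fold higher with IL-4 at 24 h. Itgax, a chain of complement receptor 4, rose with IL-4 at every time, by 1.76-fold, 2.42-fold and 2.37-fold. Itgax fell with LPS by 3.26-fold at 24 h and 4.51-fold at 72 h, and with cell extract by 2.67-fold at 72 h.

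**Figure D3:**
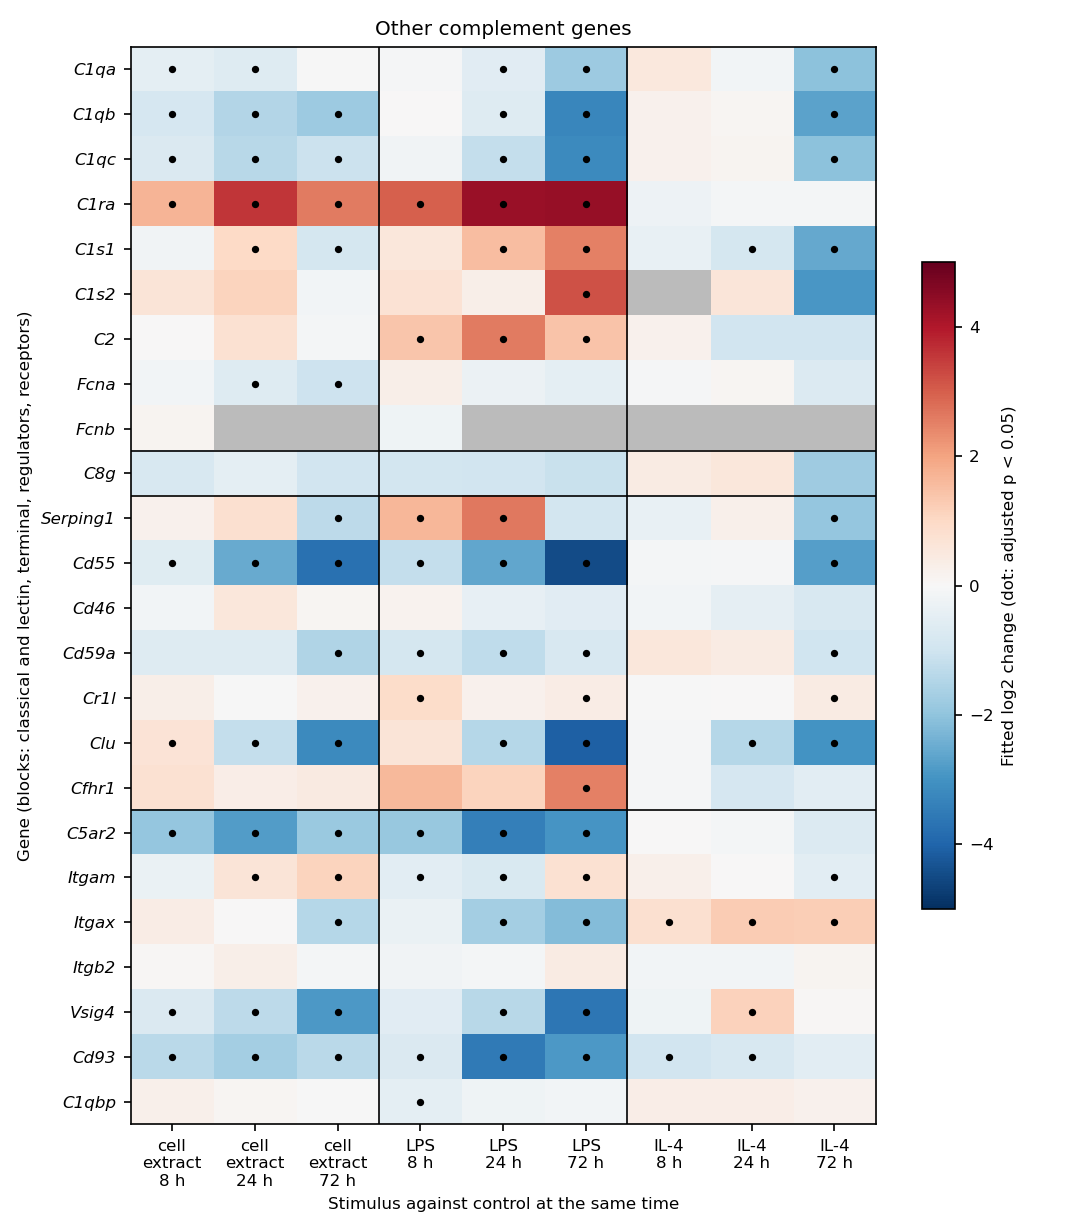
Fitted log2 change against control at the same time for 24 of the 25 other complement genes tested, in blocks by role, for cell extract, LPS and IL-4 at 8, 24 and 72 h. Red is higher with the stimulus and blue lower, dots have an adjusted p under 0.05, and grey fields had no read in 1 of the groups. C1ra is red with cell extract and LPS throughout, and C5ar2 and Cd93 are blue with both.

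Libraries held between 0.908 and 26.6 M gene counts, and 38 of 44 libraries were closest to the mean of their own group. The 6 others were IL-4 replicates 1 and 2 and control replicates 3 and 4 at 8 h, and IL-4 replicate 1 and control replicate 3 at 24 h. Only IL-4 replicate 1 at 24 h is among the 5 doubted above. Reads that fit several genes reached 17.3% in replicate 3 of cell extract and of control at 72 h, and 16.1% in control replicate 3 at 8 h. Their part in the results was not tested. The summed level of 8 macrophage markers was 8534 to 31564 CPM, far above that of any other cell type searched for, and no macrophage marker was at 0. Sums of 10 mesothelial, 8 fibroblast and 9 neutrophil markers ran from 1.5 to 109, 90.7 to 1092 and 27.5 to 537 CPM. Ly6g, which defines neutrophils, was at 0 in 32 of 44 libraries, and Upk3b, a mesothelial marker, in 4. In controls at 72 h the mesothelial sum was 74.3 to 109 CPM, against 11.9 to 19.3 CPM in controls at 8 h, and the fibroblast sum was 489.9 to 1092 against 143 to 161 CPM. At 72 h the mesothelial sum was 1.5 to 3.08 CPM with cell extract, 1.93 to 5.68 CPM with LPS and 4.54 to 18.3 CPM with IL-4, and the fibroblast sum 198 to 232, 161 to 292 and 90.7 to 204 CPM. The neutrophil sum was 316 to 537 CPM with LPS at 72 h and 52.2 to 81.9 CPM in controls. S100a8 and Csf3r make nearly all of that sum, with up to 517 and 96.9 CPM in a library, while S100a9, Ly6g, Mpo, Elane and Ngp reached at most 1.34 CPM. These sums move with several results, such as the higher C3 of late controls and, for the neutrophil sum, the higher C3 and Cfb with LPS and with cell extract at 8 h, and their part in them was not tested. At 8 h the neutrophil sum was 153 to 183 CPM with cell extract, 162 to 182 CPM with LPS and 65.2 to 79.1 CPM in controls, and the fibroblast sum 128 to 143, 179 to 214 and 143 to 161 CPM. At 24 h the neutrophil sum was 173 to 214 CPM with cell extract, 116 to 125 CPM with LPS and 56.1 to 70.5 CPM in controls. With cell extract at 72 h it was 58.7 to 71.2 CPM, inside the range of controls, while C3 and Cfb were higher than in controls.

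**Figure D4:**
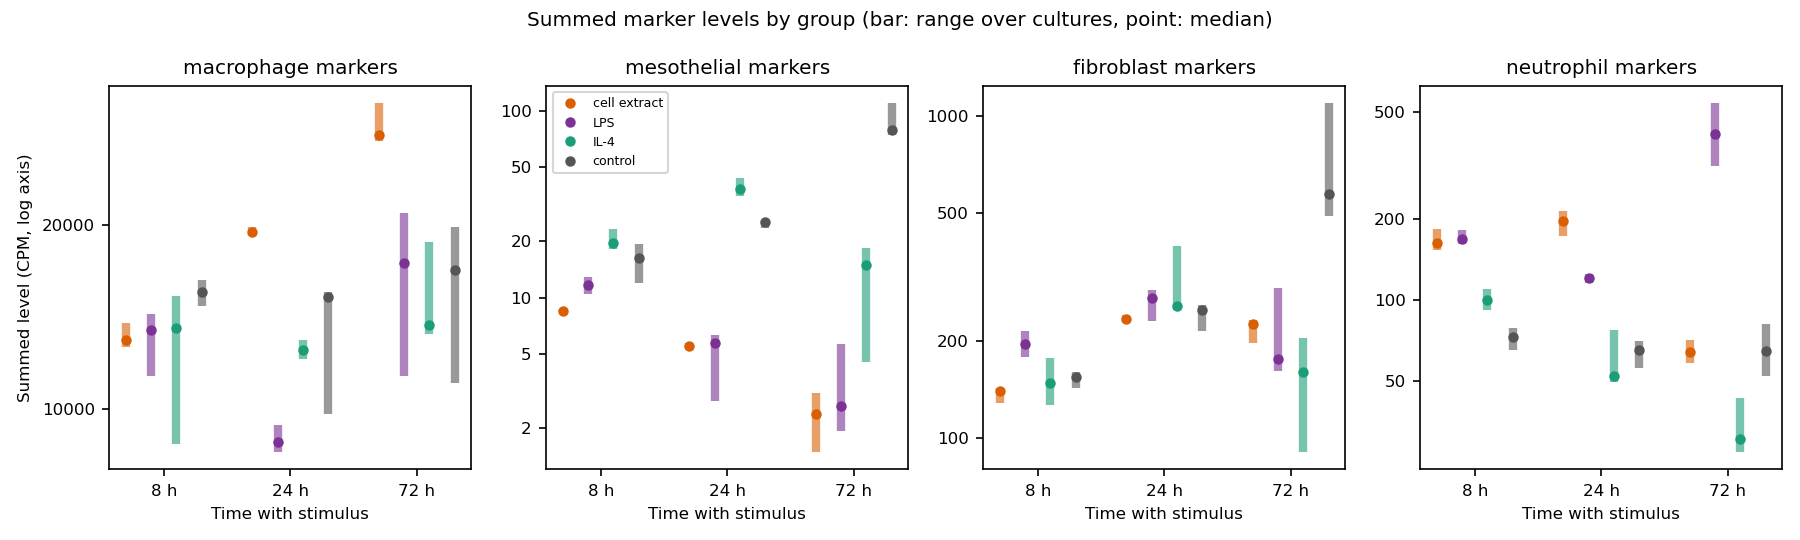
Summed level of marker genes of macrophages and 3 other cell types by time and stimulus, in CPM on a log axis. Bars span the cultures of a group and points are medians. Mesothelial and fibroblast sums are highest in controls at 72 h, and the neutrophil sum is highest with LPS at 72 h.

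Over the 12 group means of log2(CPM + 1), C3 and Cfb had a Pearson correlation of 0.92, and Cfb and C4b of 0.75, while Cfp ran against C3 (-0.67) and Cfb (-0.75), and C3ar1 against Cfb (-0.68). C5ar1 was weakly related to C3 (0.33) and C4b (0.16). Among the other 14531 tested genes, the 3 most like C3 were C1ra, Art2a-ps and Ly6i (0.96, 0.95 and 0.95), and the 3 most like Cfb were C1ra, Ifnar2 and Ly6c2 (0.98, 0.98 and 0.97), so that C1ra headed both. Those most like C4b were Plau, Lipe and Shisa5 (0.96, 0.95 and 0.93), and those most like Cfp Wdsub1, Lgals1 and Rras2 (0.92, 0.91 and 0.91). Those most like C3ar1 were Prnp, Csnk1e and Pdgfc (0.92, 0.91 and 0.91), and those most like C5ar1 Rap1gap2, Cyfip2 and Mturn (0.92, 0.90 and 0.87). These values are descriptions over 12 points that share libraries and isolate, and no test goes with them.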

How the data were processed

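Libraries were made with a kit that selects polyadenylated RNA and were read as single ends of 50 bp, per the labels' protocols. The submitters' processing notes name cutadapt, Bowtie2, TopHat, TopHat2 2.1.1, HTSeq, DESeq, edgeR and build mm10, and the deposited clipping script removes the first 3 bases and keeps reads of at least 18 nt. Neither annotation release nor strand setting is given in these sources. The authors deposited raw counts per gene, and the entry for reads that fit several genes, 5.39% of reads over all libraries (3.16 to 17.3% per library), was left out of library sizes and tests. Libraries held between 0.908 and 26.6 M gene counts.

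From these counts, edgeR 4.0.16 (R 4.3.3) gave TMM-scaled CPM and a quasi-likelihood fit over all 44 libraries with 1 coefficient per group, after filterByExpr with a minimum count of 10, for 14537 genes. P-values were adjusted by Benjamini-Hochberg over all of them in each of 20 comparisons, and called means under 0.05. Values after ± are SD for levels and SE for log2 changes. Alternatives were RLE scaling, DESeq2 1.42.0, no filter, a block for the replicate number, a fit of only the groups compared, each library left out in turn, and 3 replicates 1 left out together. A further one, these 3 and 2 more left out together, was chosen after the values of the 6 genes had been seen. Replicate numbers pair the samples in 6 of 14 comparisons, those of LPS and of cell extract with control at 8 and 24 h, of cell extract with LPS at 24 h and of control at 24 h with 8 h, where every pair's deviations correlated above 0.1. Cell extract with control at 72 h had only 2 pairs, correlated at 0.31 and 0.32, and was not counted as paired. The pairing comes from the data and not from the labels.

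The 6 genes and all gene lists were chosen with earlier results of these data known. All 6 are named throughout; other complement genes are named by the largest called changes per list at a mean of at least 1 CPM, and C1qb, C1qc, C1s1, C2, Cd93, Itgax and Vsig4 are followed at further times, chosen after their values were seen. Likeness used log2(CPM + 1) over 12 group means. 1 of the regulators tested is counted but not reported here by name. The script was tested on simulated counts.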

Additional observations from a re-analysis of the deposited data

Results flagged for a closer look

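Over the 6 genes, 48 groups of 4 cultures were examined, and 9 held a culture whose gap to its nearest neighbour was large for the group's range by Dixon's 95% limit, where chance flags about 1 in 20 groups. C3 stood at 182 CPM in LPS replicate 4 at 8 h, C4b at 2.89 CPM in LPS replicate 1 at 72 h and Cfp at 52.2 CPM in cell extract replicate 1 at 8 h. Cfp stood at 194 CPM in IL-4 replicate 1 at 24 h. C3ar1 stood at 745 CPM in control replicate 2 at 8 h and 902 CPM in control replicate 2 at 24 h. C5ar1 stood at 10.6 CPM in IL-4 replicate 3 at 8 h, 19.3 CPM in LPS replicate 3 at 24 h and 12.5 CPM in LPS replicate 1 at 72 h. LPS replicate 1 at 72 h and IL-4 replicate 1 at 24 h are the libraries with fewest counts, and the part of depth in their values was not tested.

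The effect of a stimulus differed between times, by edgeR's quasi-likelihood test of the difference with Benjamini-Hochberg adjustment, in 13 results. Given as the log2 effect at the later time minus that at 8 h, they were 1.5 for C3 with cell extract at 24 h and 1.08 for C3 with LPS at 24 h. For Cfb they were 3.17 and 2.29 with cell extract at 24 and 72 h, and 2.62 and 3.83 with LPS. For C4b with cell extract at 72 h the difference was 1.48, and for Cfp with LPS at 72 h it was -1.54. For C3ar1 it was 1.84 with cell extract at 72 h, -0.85 and -1.29 with LPS at 24 and 72 h, and -0.63 with IL-4 at 72 h. For C5ar1 with cell extract at 72 h it was -1.45.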

How the results depend on the processing

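Of 120 results for the 6 genes, 57 were called, and 47 of these kept their call under every alternative run, while 10 lost it under at least 1. Of the uncalled results, 20 were called under at least 1 alternative and 12 changed direction under at least 1. These counts include the setting without the 5 doubted libraries, chosen with the values seen, and a call gained only there is no added evidence. Such calls were Cfp with IL-4 at 8 h and in control at 72 h against 8 h, and C4b and C5ar1 for cell extract against LPS at 72 h. The number of the 6 genes called with IL-4 at 8 h was 1, and 0 in a fit of the compared groups alone (5.29% of all genes tested there called) and 3 without the 5 doubted libraries (11.5%). For cell extract against LPS at 72 h it was 3, and 5 without these 5 (24.6%). For control at 24 h against 8 h it was 0, and 2 with no filter (1.03%), and 1 each with the replicate block (0.654%), with the compared groups alone (1.01%), by DESeq2 (1.63%) and without the 5 libraries (0.637%). For the later effect minus that at 8 h it was 5 in place of 3 for LPS at 72 h with no filter (10.7%), 4 in place of 2 for cell extract at 24 h with the compared groups alone (9.86%), and 1 in place of 0 for IL-4 at 24 h by DESeq2 (1.40%). For IL-4 at 72 h it was 0 in place of 1 with no filter (7.14%), with the compared groups alone (10.9%) and without the 5 libraries (21.4%). With 1 library left out at a time, these counts were 3 to 4 for cell extract at 72 h, 0 to 1 for IL-4 at 8 h, 2 to 3 for IL-4 at 24 h, 3 to 4 for cell extract against LPS at 24 h and 2 to 3 for control at 72 h against 8 h. For the later effects at 72 h they were 3 to 5 for LPS, 3 to 4 for cell extract and 0 to 1 for IL-4. Shares of all tested genes were not set beside these left-out counts, which describe only how far a count rests on single libraries.

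Direction changed only in uncalled results. C5ar1 with LPS at 72 h was -0.008 (log2) with the compared groups alone and -0.015 by DESeq2, Cfb with IL-4 at 24 h 0.0093 by DESeq2, C3 with IL-4 at 72 h 0.070 with no filter, Cfp with IL-4 at 72 h 0.22 without the 5 libraries and C3ar1 for cell extract against LPS at 24 h 0.011 with no filter. C4b for the IL-4 effect at 72 h minus that at 8 h was -0.092 with RLE, -0.021 with the compared groups alone and -0.095 by DESeq2. With 1 library left out at a time, ranges were -0.085 to 0.23 for C5ar1 with LPS at 72 h, -0.24 to 0.088 for C4b with cell extract at 8 h, -0.28 to 0.14 for C3ar1 with cell extract at 72 h, -0.46 to 0.0086 for C4b with IL-4 at 8 h and -0.41 to 0.14 for Cfb with IL-4 at 24 h. With IL-4 at 72 h they were -0.34 to 0.19 for C3, -0.41 to 0.12 for C4b, -0.79 to 0.26 for Cfb, -0.49 to 0.22 for Cfp and -0.25 to 0.16 for C3ar1. They were -0.13 to 0.029 for C3ar1 with cell extract against LPS at 24 h and -0.20 to 0.32 for C4b in the IL-4 effect at 72 h minus that at 8 h. The cause was not tested. Where the numbers pair the samples, the replicate block changed the call of Cfp and C5ar1 with LPS at 24 h and of C5ar1 in control at 24 h, given above, and no other call. Depth limits C4b most, with as few as 1 count in a library.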
